A study of Mus musculus with 9 samples.

Results

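Heat shock chaperones fold newly made and stress-damaged proteins, and 10 of their genes were followed across 9 RNA libraries of mouse CD4+ T cells: Hspa1a, Hspa1b, Hspa8, Hsph1, Dnajb1, Dnaja1, Hsp90aa1, Hsp90ab1, Hspd1 and Hspe1. The genes were chosen by symbol, and all 10 were found among the 39253 genes of the deposited table and were deep enough to be tested in each comparison. The name cytosolic, under which they were grouped, holds for 8 of them, since Hspd1 and Hspe1 encode the chaperonin of the mitochondrial matrix. The cells came from mice on day 9 of experimental autoimmune encephalomyelitis (EAE), in which mice are immunised so that their T cells attack myelin, a common model of multiple sclerosis. Mice of 2 genotypes were used, labelled ERα KO, for loss of estrogen receptor alpha, and wildtype, and all libraries came from mice with EAE. Batch 1, as the labels name it, held ERα KO replicates 1, 2 and 3 and wildtype replicates 1 and 2, and batch 2 held ERα KO replicates 4 and 5 and wildtype replicates 3 and 4. The series title speaks of ERα in dendritic cells, whereas the RNA came from CD4+ T cells. The labels state neither the cells in which the receptor was lost nor the tissue of origin, the strain, the age or the sex of the mice. They do not say that replicates came from separate mice, so a p-value here measures only the spread between these libraries.

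In the heat shock response, the transcription factor HSF1 is held inactive by chaperones, is released when unfolded proteins occupy them, and binds inverted repeats of the letters GAA, called heat shock elements, upstream of chaperone genes. HSP70 proteins bind exposed stretches of a client protein, J proteins deliver clients and stimulate the HSP70 ATPase, and HSP110 proteins exchange the nucleotide. HSP90 acts later on kinases, steroid receptors and other signalling proteins, and the unliganded estrogen receptor is one of its classical clients. Some of these genes are strongly inducible by stress and others are made at all times. T cells make more chaperones when activated, and transcripts of inducible HSP70 also rise in many cells during tissue dissociation.

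The batch 1 libraries held 4926347 to 11296593 counts each and the deeper batch 2 libraries 45013017 to 69844721, and every member had between 220 and 254552 counts in every library. The 10 genes together took between 0.329% of the counts, in ERα KO replicate 3, and 1.35%, in wildtype replicate 3. Esr1, the gene of ERα, had 9 and 14 counts in ERα KO replicates 4 and 5, against 101 and 76 in wildtype replicates 3 and 4. The batch 1 libraries labelled ERα KO had 72, 55 and 66 Esr1 counts, against 55 and 80 in wildtype, so its level did not separate the genotype labels there. As CPM (counts per 1e6 counts of the library), Esr1 was 9.58, 6.31 and 13.0 in these ERα KO libraries, against 4.87 and 16.2 in wildtype. In batch 2 it was 0.143 and 0.256 CPM in ERα KO, against 1.45 and 1.69 CPM in wildtype. Every batch 1 library, with either label, was thus above the batch 2 wildtype libraries. ERα KO replicate 3 stood apart from the rest of batch 1: the Y-linked gene Ddx3y was at 55.4 CPM in it and at 0 in the others, and Xist, the X inactivation transcript, was at 30.4 CPM against 1745 to 2680 CPM in the others. It also held 0.256% of its counts in 1514 sensory receptor genes, against 0.0577% to 0.154% in the other batch 1 libraries. All of batch 1 was high in these genes beside batch 2, whose libraries held 0.00258% to 0.00370%. Genes with a count numbered 32046 to 34085 in the batch 1 libraries, against 17008 to 18309 in the deeper batch 2 libraries. All batch 2 libraries had Ddx3y, at 93.6 to 107 CPM, and almost no Xist, at 0 to 0.289 CPM. The 6 CD4+ T cell markers found in the table, of 7 sought, summed to 2814 to 4130 CPM in all 9 libraries, and none was at 0 throughout a group. Some results on the members are also given without ERα KO replicate 3 or wildtype replicate 3, the libraries with the lowest and highest chaperone share. The ratios, the values of the other gene lists and the likeness to other genes are given only with them.

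Hspa1a and Hspa1b encode the stress-inducible HSP70, and they are neighbours on chromosome 17 with almost the same sequence. Their upstream sequences are shown because the members whose levels varied most between libraries were this pair and because they show how alike the copies are. The bases before the annotated start of transcription (RefSeq, GRCm38.p6, minus strand, printed 5′ to 3′) are chr17:34972157-34972406 for Hspa1a and chr17:34959239-34959488 for Hspa1b, with an 8-letter match to the heat shock element, GAANNTTC, in capitals.
Hspa1a: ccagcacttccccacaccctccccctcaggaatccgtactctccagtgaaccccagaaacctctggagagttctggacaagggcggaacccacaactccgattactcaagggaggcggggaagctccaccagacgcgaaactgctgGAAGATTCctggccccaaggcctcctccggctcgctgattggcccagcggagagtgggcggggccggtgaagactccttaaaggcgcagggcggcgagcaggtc
Hspa1b: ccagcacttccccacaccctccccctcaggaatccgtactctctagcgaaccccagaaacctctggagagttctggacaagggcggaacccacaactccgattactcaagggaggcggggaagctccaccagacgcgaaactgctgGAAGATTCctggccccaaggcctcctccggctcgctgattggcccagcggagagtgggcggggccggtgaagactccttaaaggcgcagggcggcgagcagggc
Counted from 1 at the 5′ end, with the Hspa1a base first, the windows differed by C44T, T47C and T249G. The match lies 104 to 97 bases before the start in both. The transcripts were alike too: 47.1% of the 2868 windows of 100 bases, the read length, in the Hspa1a transcript occurred unchanged in Hspa1b, as did 49.9% of the 2704 windows of Hspa1b in Hspa1a (GENCODE vM21). Reads from the shared stretches were divided between the copies by estimation, so the separate values of Hspa1a and Hspa1b are uncertain and their sum is given as well.

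Matches to the same kind of element lay upstream of other members, and 3 stretches are shown because they carry its different arrangements (RefSeq, GRCm38.p6, 5′ to 3′ on the gene's strand, matched letters in capitals). They are chr5:149636350-149636381 on the minus strand for Hsph1, chr4:40722332-40722363 on the plus strand for Dnaja1 and chr1:55088047-55088088 on the plus strand for Hspe1.
Hsph1: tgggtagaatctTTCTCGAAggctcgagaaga
Dnaja1: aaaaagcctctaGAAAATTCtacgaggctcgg
Hspe1: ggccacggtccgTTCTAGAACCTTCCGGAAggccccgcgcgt
Hspd1 and Hspe1 are neighbours on opposite strands of chromosome 1, and the Hspe1 stretch also lies in the Hspd1 upstream window. The letters searched in the 250 bases before the start were GAANNTTC and TTCNNGAA, each of which reads the same on both strands, and GAANNTTCNNGAA on either strand, which contains both. A window was found for 7 of the 10 members, all but Hspa8, Hsp90aa1 and Hsp90ab1. An 8-letter motif was in 6 of the 7 (all but Dnajb1), and in 14.5% of the 27025 genes that had a window. The 6 are not separate occurrences, since the Hspa1a and Hspa1b windows are near copies and the Hspd1 and Hspe1 matches are the same bases. The 13-letter motif was in 2 of the 7, Hspd1 and Hspe1, which share it, and in 0.514% of the 27025 genes. A match is only a run of letters and does not show a bound site.

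In batch 2 the inducible HSP70 genes had the largest fitted genotype differences of the 10 members, both lower in ERα KO in value, and neither passed adjustment in the edgeR fit. Hspa1a stood at 722 and 593 CPM in ERα KO replicates 4 and 5, against 2312 and 1488 CPM in wildtype replicates 3 and 4. Hspa1b stood at 1097 and 852 CPM in the ERα KO libraries, against 3103 and 1917 CPM in the wildtype libraries. Both ERα KO libraries were below both wildtype libraries for each gene, and wildtype replicate 3 was the highest. The fitted log2 fold change, ERα KO minus wildtype, was -1.54 ± 0.27 (SE) for Hspa1a and -1.37 ± 0.30 for Hspa1b, with n = 2 against 2. The unadjusted edgeR quasi-likelihood p-values of this fit across all genes were 0.00277 and 0.00797, and after Benjamini-Hochberg adjustment over 15910 genes both were 0.618, above the threshold of 0.05. The DESeq2 Wald test on the same counts called both lower, with adjusted p = 0.000183 for Hspa1b and a smaller value for Hspa1a. With the copies summed, the libraries held 1819 and 1445 CPM in ERα KO, against 5415 and 3406 CPM in wildtype, and the log2 fold change was -1.44 (edgeR adjusted p = 0.619).

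In batch 1 the same genes gave the opposite sign and a far larger spread. Hspa1a stood at 1935, 2499 and 294 CPM in the libraries labelled ERα KO 1, 2 and 3, against 750 and 1039 CPM in wildtype replicates 1 and 2. Hspa1b stood at 3070, 3934 and 523 CPM in the libraries labelled ERα KO, against 1266 and 1852 CPM in wildtype. Replicates 1 and 2 labelled ERα KO were above both wildtype libraries and replicate 3 was below both. The log2 fold changes were 0.80 ± 1.13 (SE) for Hspa1a and 0.67 ± 1.05 for Hspa1b, with n = 3 against 2, and neither passed (edgeR adjusted p = 1.00). Without ERα KO replicate 3 they were 1.29 and 1.15 and both were called higher in ERα KO (edgeR adjusted p = 0.00924 and 0.0272), where 0.0583% of the 22292 genes tested were called higher. That library was singled out by its low chaperone values, so these p-values only describe how far the result depends on it and are no test of genotype.

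**Figure D1:**
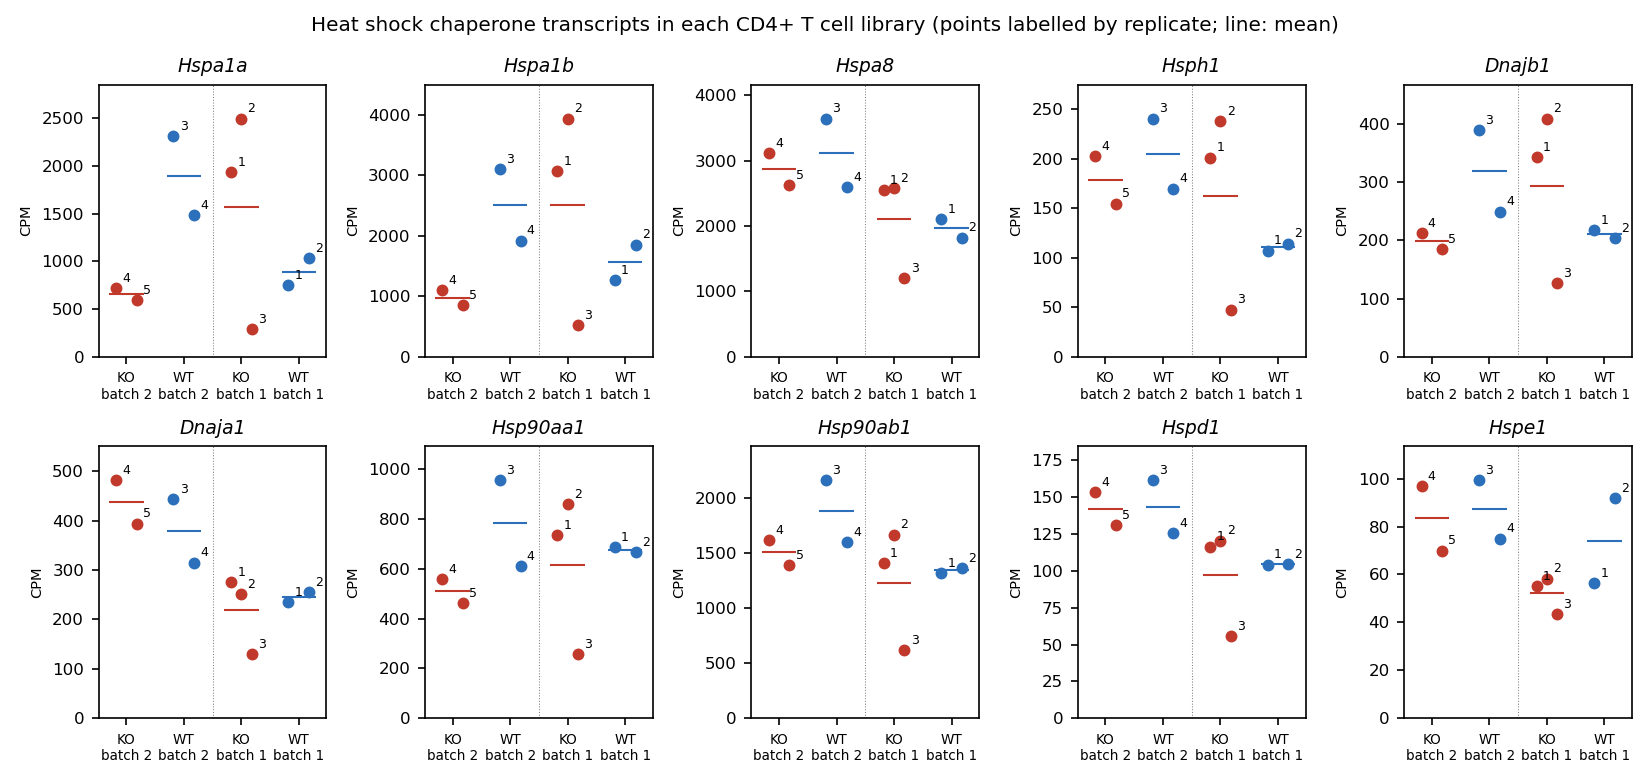
CPM of the 10 chaperone genes in each library, with ERα KO left of wildtype within each batch; points are libraries labelled by replicate number and lines are group means. Both ERα KO libraries of batch 2 sat below both wildtype libraries for Hspa1a, Hspa1b, Hsp90aa1 and Dnajb1, and ERα KO replicate 3 was the lowest batch 1 library in all 10 panels.

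Hspa8 encodes the constitutive HSP70, which is also used in clathrin uncoating and chaperone-mediated autophagy. It stood at 3116 and 2620 CPM in ERα KO replicates 4 and 5, against 3645 and 2591 CPM in wildtype replicates 3 and 4. In batch 1 it stood at 2546, 2585 and 1200 CPM in the libraries labelled ERα KO, against 2105 and 1825 CPM in wildtype. The groups overlapped in both batches, and the log2 fold changes were -0.12 ± 0.21 (SE) in batch 2 and 0.00 ± 0.38 in batch 1 (edgeR adjusted p = 0.923 and 1.00). The ratio within a library does not depend on how libraries are scaled, and it was read only between libraries because transcript length differs between genes. The log2 ratio of Hspa1a plus Hspa1b to Hspa8 was -0.78 and -0.86 in ERα KO replicates 4 and 5, against 0.57 and 0.39 in wildtype replicates 3 and 4. In batch 1 it was 0.97, 1.32 and -0.56 in the libraries labelled ERα KO, against -0.06 and 0.66 in wildtype. The inducible share of HSP70 transcripts was thus lower in both ERα KO libraries of batch 2 than in any other library, with a mean difference in the log2 ratio of -1.30 in batch 2 and 0.28 in batch 1, given without a test.

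Hsph1 encodes HSP110, a nucleotide exchange factor for HSP70 that also works with it to dissolve aggregates. It stood at 202 and 155 CPM in ERα KO replicates 4 and 5, against 240 and 170 CPM in wildtype replicates 3 and 4. The batch 1 libraries labelled ERα KO had 201, 238 and 47.7 CPM, against 107 and 114 CPM in wildtype. Groups overlapped in both batches, with ERα KO replicate 3 lowest and replicates 1 and 2 above the wildtype libraries in batch 1. The log2 fold change was -0.20 ± 0.24 (SE) in batch 2 and 0.50 ± 0.65 in batch 1 (edgeR adjusted p = 0.873 and 1.00).

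The J proteins did not move alike. Dnajb1, the inducible J protein that recruits HSP70 and feeds back on HSF1, stood at 212 and 185 CPM in ERα KO replicates 4 and 5, against 389 and 249 CPM in wildtype replicates 3 and 4. Dnaja1, a farnesylated J protein that serves HSP70 in the unstressed cytosol, stood at 482 and 394 CPM in the ERα KO libraries, against 444 and 315 CPM in wildtype. The ERα KO libraries were below the wildtype libraries for Dnajb1 and overlapped with them for Dnaja1. The log2 fold changes were -0.69 ± 0.26 (SE; edgeR unadjusted p = 0.0462, adjusted p = 0.637) for Dnajb1 and 0.20 ± 0.22 (adjusted p = 0.856) for Dnaja1. In batch 1, Dnajb1 had 343, 409 and 126 CPM in the libraries labelled ERα KO, against 217 and 204 CPM in wildtype, and Dnaja1 had 276, 252 and 129 CPM in the libraries labelled ERα KO, against 234 and 255 CPM in wildtype. Their log2 fold changes there were 0.40 ± 0.43 and -0.24 ± 0.38, and the groups overlapped. The log2 ratio of Dnajb1 to Dnaja1, chosen after the values were seen, was -1.18 and -1.09 in ERα KO replicates 4 and 5, against -0.19 and -0.34 in wildtype replicates 3 and 4. In batch 1 it was 0.31, 0.70 and -0.03 in the libraries labelled ERα KO, against -0.11 and -0.32 in wildtype. This ratio was lower in both ERα KO libraries of batch 2 than in any other library, and higher in the 3 libraries labelled ERα KO of batch 1 than in both wildtype libraries.

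**Figure D2:**
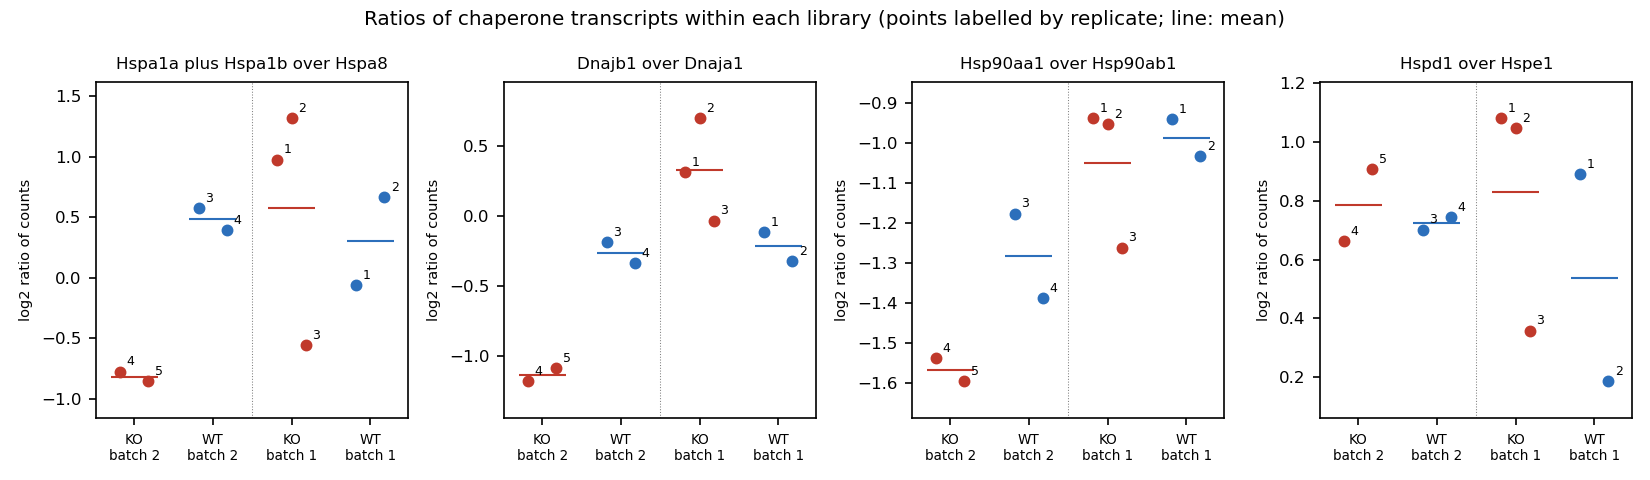
Log2 ratios of 2 chaperone transcripts within each library, with ERα KO left of wildtype within each batch; points are libraries labelled by replicate number and lines are group means. The ratio of inducible to constitutive HSP70 was -0.78 and -0.86 in the ERα KO libraries of batch 2, below every other library, while the HSP90 and chaperonin ratios varied less.

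The HSP90 genes had smaller fitted differences than the inducible HSP70 genes in batch 2, and the difference between the pairs was not tested. Hsp90aa1, the inducible isoform, stood at 558 and 461 CPM in ERα KO replicates 4 and 5, against 956 and 610 CPM in wildtype replicates 3 and 4. Hsp90ab1, the constitutive isoform, stood at 1619 and 1392 CPM in the ERα KO libraries, against 2161 and 1595 CPM in wildtype. The groups did not overlap for Hsp90aa1 and did for Hsp90ab1. The log2 fold changes were -0.63 ± 0.27 (SE; edgeR unadjusted p = 0.0709, adjusted p = 0.659) and -0.32 ± 0.19 (adjusted p = 0.732). In batch 1, Hsp90aa1 had 734, 859 and 257 CPM in the libraries labelled ERα KO, against 686 and 667 CPM in wildtype, and Hsp90ab1 had 1408, 1666 and 617 CPM in the libraries labelled ERα KO, against 1317 and 1364 CPM in wildtype. For both isoforms, replicates 1 and 2 labelled ERα KO were above the wildtype libraries and replicate 3 was below them, and both log2 fold changes were -0.20, with SE 0.43 and 0.39. The log2 ratio of Hsp90aa1 to Hsp90ab1 was -1.54 and -1.60 in ERα KO replicates 4 and 5, against -1.18 and -1.39 in wildtype replicates 3 and 4, and in batch 1 it was -0.94, -0.95 and -1.26 in the libraries labelled ERα KO, against -0.94 and -1.03 in wildtype.

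Hspd1 and Hspe1 encode HSP60 and HSP10, the barrel and lid of the mitochondrial chaperonin, from neighbouring genes that are transcribed away from each other. Hspd1 stood at 153 and 131 CPM in ERα KO replicates 4 and 5, against 162 and 126 CPM in wildtype replicates 3 and 4. Hspe1 stood at 96.8 and 69.9 CPM in the ERα KO libraries, against 99.4 and 75.0 CPM in wildtype. The groups overlapped for both, with log2 fold changes of -0.02 ± 0.18 and -0.07 ± 0.23 (SE; edgeR adjusted p = 0.991 and 0.968). In batch 1, Hspd1 had 117, 121 and 55.6 CPM in the libraries labelled ERα KO, against 104 and 105 CPM in wildtype, and Hspe1 had 55.1, 58.3 and 43.4 CPM in the libraries labelled ERα KO, against 56.3 and 92.0 CPM in wildtype. Their log2 fold changes there were -0.19 ± 0.39 and -0.58 ± 0.36, with overlapping groups. The log2 ratio of Hspd1 to Hspe1 was 0.66 and 0.91 in ERα KO, against 0.70 and 0.74 in wildtype in batch 2, and it ran from 0.36 to 1.08 in the batch 1 libraries labelled ERα KO, against 0.19 and 0.89 in wildtype.

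Over the 10 members, none was called in batch 2 by edgeR after adjustment, where 0% of 15910 genes were called. At an unadjusted p under 0.05, 3 were lower (Hspa1a, Hspa1b and Dnajb1) and none was higher, where 4.97% of all genes were lower and 2.8% higher at that threshold. DESeq2 called 2 lower, with 1.69% of all genes lower, and limma-voom called 0. Both ERα KO libraries were below both wildtype libraries for 4 of 10 members, against 20.5% of all genes. The median log2 fold change of the members was -0.26, with 9 of 10 below 0, beside -0.02 over all 15910 genes, of which 52.2% were below 0. A lower CPM in bulk RNA cannot tell fewer cells that make a transcript from less RNA per cell. Wildtype replicate 3 was the highest batch 2 library for 9 of 10 members, all but Dnaja1, against 23.3% of the 12709 genes with a mean of at least 1 CPM. Without it, 5 of 10 members were below 0, their median was 0.04, and 1 was called lower, Hspa1a, at -1.14 (edgeR adjusted p = 0.00853), where 1.09% of 16575 genes were called lower. Without wildtype replicate 4, 10 of 10 were below 0 and 5 were called lower, Hspa1a at -1.86, Hspa1b at -1.71, Dnajb1 at -1.01, Hsp90aa1 at -0.95 and Hsp90ab1 at -0.56, where 4.63% of 16858 genes were called lower. With either of these libraries left out, 1 wildtype library remained and was assumed to vary like the ERα KO libraries.

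**Figure D3:**
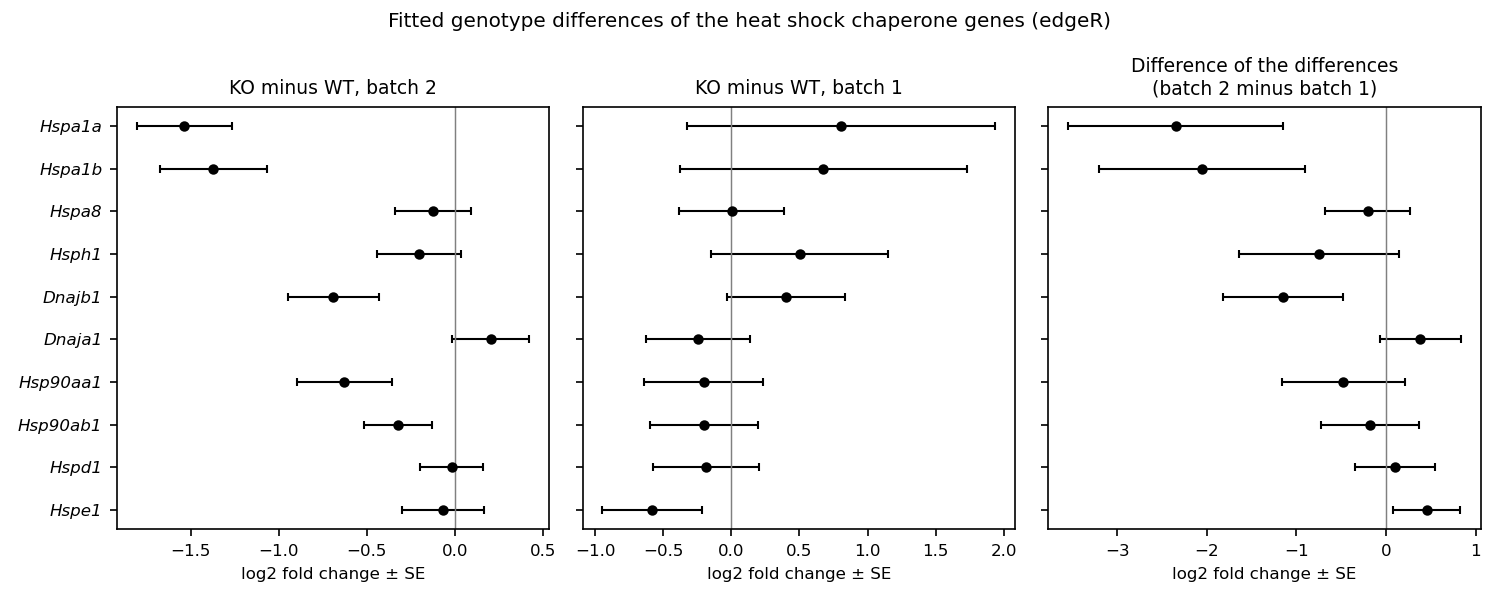
Log2 fold change, ERα KO minus wildtype, of each member in the fits named above the panels (point and SE), where the interaction is the batch 2 difference minus the batch 1 difference. Hspa1a and Hspa1b stood at -1.54 and -1.37 in batch 2 and at 0.80 and 0.67, with wide errors, in batch 1.

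In batch 1, none of the 10 members was called by edgeR, where 0.126% of 24600 genes were called, and none was under an unadjusted p of 0.05 by edgeR, where 1.97% of all genes were. DESeq2 and limma-voom called 0 as well. The median log2 fold change was -0.09, with 5 of 10 below 0, beside 0.04 over all genes, of which 46.2% were below 0. The groups overlapped for all 10, whereas the libraries labelled ERα KO were all below wildtype for 5.19% of all genes and all above it for 10.9%. ERα KO replicate 3 was the lowest of the 5 libraries for 10 of 10 members, against 13.9% of 24984 genes with a mean of at least 1 CPM, and the highest of the 5 for 52.6% of those genes and for no member. That cut kept 12709 genes in batch 2, so the batch 1 share includes many more low-level genes. The low values were not particular to the members. Endoplasmic reticulum chaperones summed to 1248 CPM in replicate 3, against 1583 to 2102 CPM in the other batch 1 libraries. CD4+ T cell markers summed to 2814 CPM, against 2927 to 3452 CPM. The sums of proliferation genes and neutrophil markers were not lowest there. ERα KO replicate 2 was the highest for 8 of 10 members, against 9.09% of those genes. Without replicate 3, 9 of 10 log2 fold changes were above 0, and their median was 0.27.

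**Figure D4:**
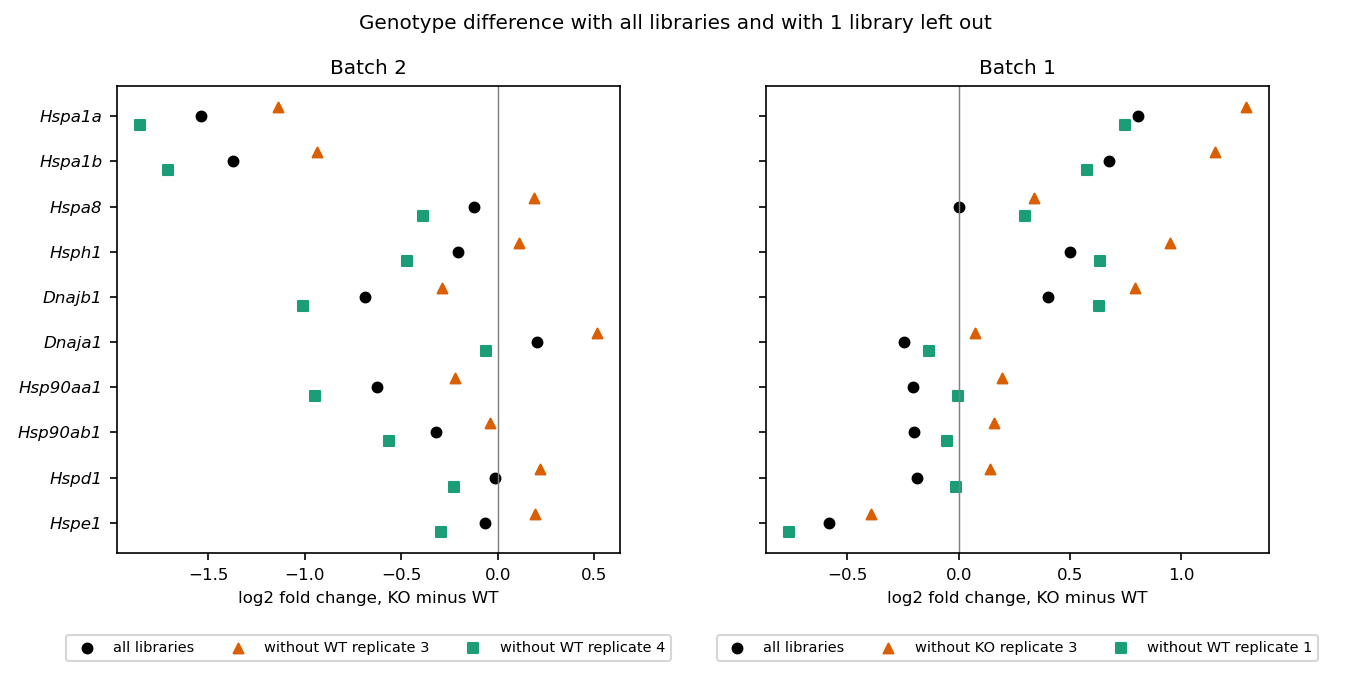
Log2 fold change, ERα KO minus wildtype, of each member with all libraries of the batch (circles) and without the library named in the legend; n is 2 against 2 in batch 2 and 3 against 2 in batch 1 with all libraries, and the axes differ in range. With wildtype replicate 3 omitted Hspa1a was -1.14, and with replicate 4 omitted it was -1.86, while Hspa8, Hsph1, Dnaja1, Hspd1 and Hspe1 lay on both sides of 0 in batch 2.

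With the batches in 1 model, the genotype difference ran from -0.38 for Hsp90aa1 to 0.19 for Hsph1, with Hspa1a at -0.30 ± 0.77 (SE) and Hspa1b at -0.29 ± 0.69. None of the 10 members was called or under an unadjusted p of 0.05 by edgeR (adjusted p = 1.00), with 0 called by DESeq2 or limma-voom, where 0.00451% of 22197 genes were called and 2.36% were under that unadjusted p. The difference between the batches was tested as an interaction, the batch 2 difference minus the batch 1 difference. It was -2.35 ± 1.20 for Hspa1a, -2.05 ± 1.15 for Hspa1b and -1.15 ± 0.67 for Dnajb1, and none of these passed (edgeR adjusted p = 0.624, 0.659 and 0.670). No member was called or was under an unadjusted p of 0.05 in this edgeR test, where 0.00451% of 22197 genes were called and 8.36% were under that p, and the median of the members was -0.34, beside -0.19 over all genes. Without ERα KO replicate 3 the interaction of Hspa1a was -2.87 and was called (edgeR adjusted p = 0.0367). It was the 1 gene called lower among 23731, or 0.00421%. That library was singled out by its low chaperone values, so this p-value only describes how far the interaction depends on it and is no test of genotype.

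Between the batches themselves, with genotype in the model, the constitutive Dnaja1 and Hspa8 and the mitochondrial pair were higher in batch 2. Dnaja1 was 1.05 ± 0.22 (SE) higher on the log2 scale, Hspa8 0.76 ± 0.23, Hspd1 0.72 ± 0.21 and Hspe1 0.70 ± 0.19, and these 4 of 10 were called higher (edgeR adjusted p = 0.00188, 0.0148, 0.0124 and 0.00819), where 16.8% of 22197 genes were called higher and the median of all genes was -0.76. Another 47.3% of the genes were called lower. The rise was not particular to the members. Also called higher were 16 of 18 HSP90 co-chaperones, 11 of 14 CCT chaperonin and prefoldin genes and 12 of 16 endoplasmic reticulum chaperones. So were 8 of 12 other mitochondrial chaperones and proteases and 6 of 6 CD4+ T cell markers. Of the 6 small heat shock proteins tested, 0 were called higher and 3 lower. Hspa1a stood at 0.05 ± 0.77, Hspa1b at -0.19 ± 0.69, Dnajb1 at 0.19 ± 0.38 and Hsp90aa1 at 0.16 ± 0.33, and none of these passed. Hsph1, at 0.69 ± 0.43, and Hsp90ab1, at 0.60 ± 0.26, were as far above 0 in value as some of the called members and did not pass either (edgeR adjusted p = 0.187 and 0.0630), so the inducible and constitutive members were not cleanly split. Upper-quartile scaling moved the median of all genes to -0.97, and with it 1 member, Dnaja1, was called, where 6.1% of all genes were called higher. Without wildtype replicate 1, which put the median of all genes at -3.10, Dnaja1 was again the 1 member called, where 6.54% of 28864 genes were called higher. Batch could not be told apart from depth or from the share of counts in sensory receptor genes. Nor could it be told apart from the expression of Ddx3y and Xist. The batch 2 libraries had Ddx3y and almost no Xist, and the batch 1 libraries had the reverse, except ERα KO replicate 3. That library had Ddx3y, with Xist far below the others of batch 1.

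The spread between libraries of the same batch and genotype rested on ERα KO replicate 3. With all 9 libraries the pooled SD of log2 CPM was 1.10 for Hspa1a, 1.05 for Hspa1b and 0.83 for Hsph1, against 0.33 for Hspe1, 0.42 for Hspd1 and Dnaja1 and 0.44 for Hspa8. Without ERα KO replicate 3 it was 0.32 for Hspa1a, 0.36 for Hspa1b and 0.24 for Hsph1, against 0.33 for Hspe1, 0.15 for Hspd1, 0.21 for Dnaja1 and 0.21 for Hspa8, so Hspe1 then varied as much as the inducible HSP70 genes. With the group means taken out, the 45 pairs of members had Pearson r between 0.50, for Hspa8 and Hspe1, and 1.00, for Hsp90aa1 and Dnajb1, with a median of 0.98 over 9 libraries. Without ERα KO replicate 3 and wildtype replicate 3 the median r over the 7 remaining libraries was 0.67 and the lowest was -0.10. These values describe libraries that share a batch and its depth, and no p is attached to them. Among 10417 other genes with a mean of at least 5 CPM, the 8 most like the mean of the members over the 9 libraries, all with r of at least 0.99, included Btla, Eif3m, Topors, Zfp330, Mcl1, Ccdc25 and Tra2b. ERα KO replicate 3 was the lowest batch 1 library for each of these named genes. Their r was not computed without it, so how far the likeness rests on that library was not tested. Mcl1, an anti-apoptotic gene of the BCL2 family, had 674 and 616 CPM in ERα KO replicates 4 and 5, against 591 and 541 CPM in wildtype replicates 3 and 4, and 529, 543 and 340 CPM in the batch 1 libraries labelled ERα KO, against 486 and 516 CPM in wildtype. ERα KO replicate 3 was thus also the lowest batch 1 library for Mcl1, while the batch 2 values were higher in ERα KO.

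The other genes of the chaperone network were read from lists, and no gene of any list below was called in batch 2 or batch 1 by edgeR. Among the 6 heat shock factors and their regulators, 1 was below 0 in batch 2 and the median log2 fold change was 0.13. Hsf1, the factor that drives the response, stood at 103 and 97.4 CPM in ERα KO replicates 4 and 5, against 95.2 and 102 CPM in wildtype replicates 3 and 4, and differed by 0.02 on the log2 scale. In batch 1 it stood at 96.7, 89.4 and 88.0 CPM in the libraries labelled ERα KO, against 98.9 and 79.4 CPM in wildtype. Its level thus varied far less than that of Hspa1a in either batch.

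Of the other cytosolic HSP70 and HSP110 genes, 5 of 7 were tested in batch 2 and 3 of them were below 0. Hspa4l, an HSP110 relative, had 35.1 and 28.4 CPM in ERα KO, against 47.7 and 45.9 CPM in wildtype, a log2 fold change of -0.56 ± 0.15 (SE; edgeR unadjusted p = 0.0127, adjusted p = 0.625). Hspa12a, a distant HSP70 relative, was above wildtype in value, with 5.57 and 3.95 CPM in ERα KO, against 2.75 and 2.00 CPM in wildtype, a log2 fold change of 1.00 ± 0.39 (unadjusted p = 0.0462, adjusted p = 0.637). The list thus had 1 gene under an unadjusted p of 0.05 in each direction. Among 21 HSP70 co-chaperones 12 were below 0, with a median of -0.04, and none was under an unadjusted p of 0.05 by edgeR. Bag1, a nucleotide exchange factor, had the smallest p of the list, at -0.23 ± 0.10 (adjusted p = 0.684). Bag3, another exchange factor that is induced by HSF1 and was chosen after its values were seen, had 29.5 and 35.4 CPM in ERα KO, against 45.5 and 27.7 CPM in wildtype in batch 2, and 82.5, 104 and 29.6 CPM in the batch 1 libraries labelled ERα KO, against 40.5 and 28.2 CPM in wildtype. Its batch 1 values had the order of Hspa1a among the ERα KO libraries, and its log2 fold change there was 0.96 ± 0.49 (adjusted p = 1.00).

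The 18 HSP90 co-chaperones had 9 members below 0 and a median of -0.01 in batch 2, the 14 CCT chaperonin and prefoldin genes 6 and 0.03, and the 12 other mitochondrial chaperones and proteases 4 and 0.06. None of these genes was under an unadjusted p of 0.05 by edgeR in batch 2. The largest difference in the mitochondrial list was that of Clpp, a matrix protease, at 0.34 ± 0.15 (SE; adjusted p = 0.654). Of 10 small heat shock proteins, 5 were tested, and Cryab, the α-crystallin B gene, had 22 and 35 counts in ERα KO replicates 4 and 5, against 0 and 0 in wildtype replicates 3 and 4. Cryab did not pass after adjustment (adjusted p = 0.625), and the batch 1 libraries labelled ERα KO had 9, 18 and 15 counts of it, against 17 and 7 in wildtype.

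Endoplasmic reticulum chaperones, which answer to a separate stress pathway, were mostly lower in value in batch 2. Of the 16, 15 were below 0, against 52.2% of all genes, and the median was -0.20. At an unadjusted edgeR p under 0.05, 3 were lower, against 4.97% of all genes. Hspa5, the HSP70 of that compartment, stood at 261 and 240 CPM in ERα KO, against 370 and 305 CPM in wildtype, a log2 fold change of -0.43 ± 0.15 (SE; edgeR unadjusted p = 0.0297, adjusted p = 0.625). Pdia6, a disulfide isomerase, stood at -0.42 ± 0.12 (unadjusted p = 0.0137, adjusted p = 0.625) and Calr, calreticulin, at -0.27 ± 0.09 (unadjusted p = 0.0273, adjusted p = 0.625). In batch 1 the list had 11 of 16 below 0 and a median of -0.13.

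**Figure D5:**
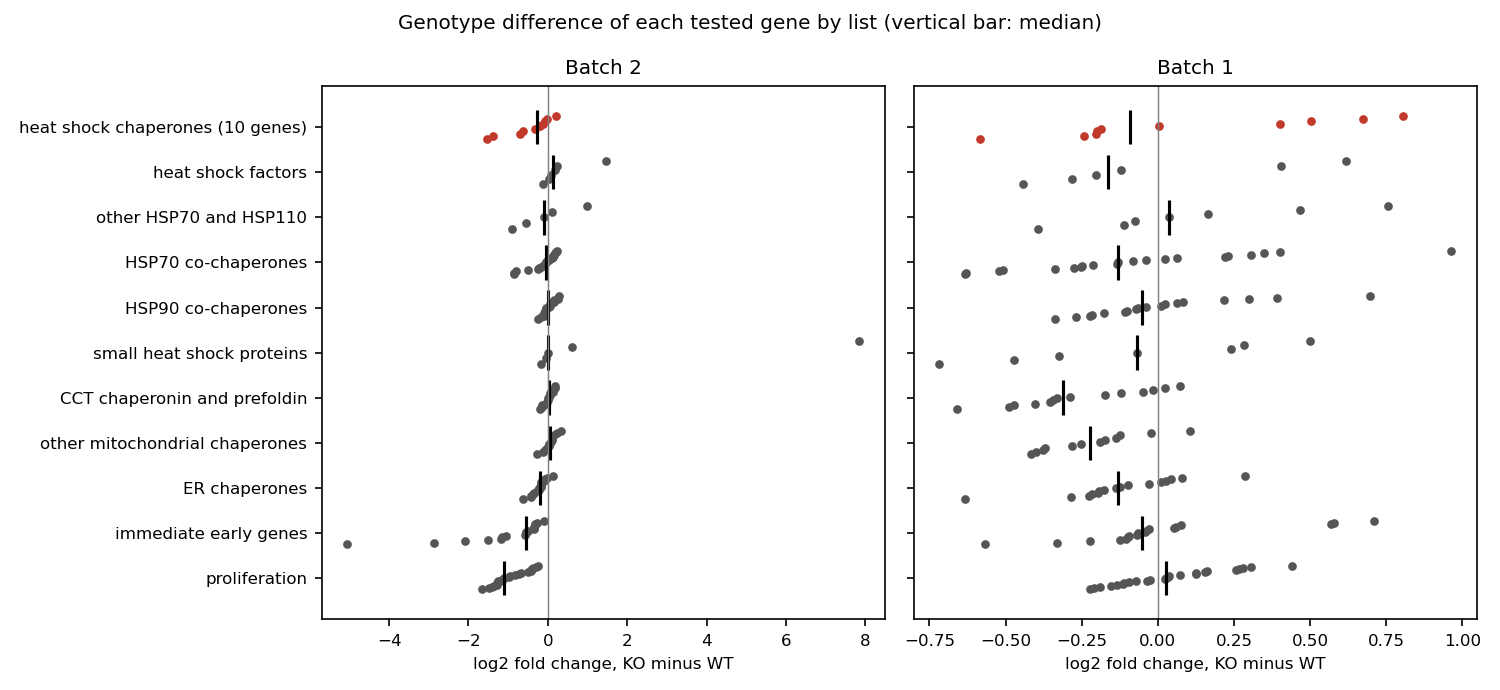
Log2 fold change, ERα KO minus wildtype, of each tested gene in the member list and in the other lists, in batch 2 and batch 1; each point is a gene and the vertical bar is the list's median. In batch 2 the immediate early and proliferation lists lay wholly below 0, with medians of -0.55 and -1.11, and the other cytosolic chaperone lists had medians near 0. The axes differ in range, and the point at the far right is Cryab, at 0 counts in wildtype, whose fitted value depends on the prior count.

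Several other lists had values that moved beside the inducible chaperones in batch 2, among them immediate early genes, proliferation genes and the markers of some other cell types. The 18 immediate early genes, which also rise during tissue handling, were all below 0 in batch 2, against 52.2% of all genes, with a median of -0.55. At an unadjusted edgeR p under 0.05, 9 were lower, against 4.97% of all genes. The 18 genes summed to 3102 and 2960 CPM in ERα KO, against 5519 and 4024 CPM in wildtype. Jun stood at 317 and 269 CPM in ERα KO, against 671 and 546 CPM in wildtype, a log2 fold change of -1.06 ± 0.16 (SE; edgeR unadjusted p = 0.000957, adjusted p = 0.618), and Fos at 31.5 and 33.9 CPM in ERα KO, against 193 and 80.3 CPM in wildtype. In batch 1 the sum was 4711, 5302 and 3372 CPM in the libraries labelled ERα KO, against 4472 and 4341 CPM in wildtype, so ERα KO replicate 3 was again the lowest and replicate 2 the highest.

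The 25 proliferation genes were all below 0 in batch 2, against 52.2% of all genes, with a median of -1.11. At an unadjusted edgeR p under 0.05, 20 were lower, against 4.97% of all genes. The 25 genes summed to 1324 and 1783 CPM in ERα KO, against 4034 and 2423 CPM in wildtype. Mki67, a marker of cycling cells, stood at 441 and 708 CPM in ERα KO, against 2155 and 1036 CPM in wildtype. In batch 1 the sum was 1090, 1592 and 1024 CPM in the libraries labelled ERα KO, against 1499 and 833 CPM in wildtype. The 10 neutrophil markers summed to 6.09 and 10.3 CPM in ERα KO, against 236 and 25.3 CPM in wildtype in batch 2, and to 1264, 774 and 1125 CPM in the batch 1 libraries labelled ERα KO, against 1003 and 338 CPM in wildtype, and none of the 10 was at 0 throughout a group. S100a8, 1 of the 10 listed neutrophil markers, had 1.99 and 2.54 CPM in ERα KO, against 56.1 and 7.46 CPM in wildtype in batch 2. The 6 erythroid markers summed to 130 to 141 CPM in ERα KO, against 96.9 to 1820 CPM in wildtype in batch 2, and none was at 0 throughout either group. The 10 monocyte or macrophage markers were all below 0 in batch 2, with a median of -0.58 and 1 under an unadjusted p of 0.05, and summed to 91.5 to 109 CPM in ERα KO, against 127 to 195 CPM in wildtype. The 4 plasma cell markers summed to 62.0 to 63.9 CPM in ERα KO, against 77.3 to 106 CPM in wildtype, and the 7 dendritic cell markers to 2.90 to 3.81 CPM in ERα KO, against 6.07 to 9.49 CPM in wildtype, with 1 dendritic marker at 0 throughout the ERα KO libraries. Other markers did not all go this way in batch 2. The 6 B cell markers had 4 above 0 and a median of 0.34. The 6 microglia and neural markers summed to 231 to 234 CPM in ERα KO, against 202 to 209 CPM in wildtype. Of these, 3 of the 4 tested were below 0. The 5 NK cell markers summed to 17.3 to 18.5 CPM in ERα KO, against 14.1 to 17.6 CPM in wildtype, with 4 of 5 below 0. In batch 1 the monocyte or macrophage markers summed to 157 to 229 CPM in the libraries labelled ERα KO, against 75.7 to 173 CPM in wildtype, the plasma cell markers to 180 to 218 CPM, against 74.5 to 177 CPM in wildtype, and the dendritic cell markers to 24.5 to 41.8 CPM, against 12.9 to 27.8 CPM in wildtype. The sum of the CD4+ T cell markers also differed by genotype label in both batches, in opposite directions. It was 4130 and 4123 CPM in ERα KO, against 3605 and 3831 CPM in wildtype in batch 2, where 6 of 6 markers were above 0, and 2927, 2984 and 2814 CPM in the batch 1 libraries labelled ERα KO, against 3452 and 3259 CPM in wildtype, where 6 of 6 were below 0. The part of proliferation, immediate early genes or the share of other cell types in the chaperone values was not tested.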

How the data were processed

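RNA of CD4+ T cells was read from Ovation libraries as single-end reads of 100 bases, per the labels' protocols. The submitters' processing notes list Salmon 1.2.0, R 4.0.3 and GRCm39 and give no role for any of them. The strand setting, the gene models and any upstream filter were not given in the sources used here. For each of 39253 genes the authors made an estimated count (expected count), deposited in 1 table, per the file headers, and these fractional values, which may have been adjusted for transcript length, were rounded here. All 9 libraries were used, grouped by their titles and the batch label.

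edgeR 4.0.16 in R 4.3.3 (TMM, default low-count filter with minimum count 10 and minimum total 15, robust quasi-likelihood test) was fitted to the whole table within each batch, over both with batch as a term, and with an interaction, and p-values were adjusted by Benjamini-Hochberg with 0.05 as threshold. The fits were run on simulated counts with known changes, and the share of changes recovered is not reported here. The simulated counts held no library that stood apart as ERα KO replicate 3 did, so that run does not cover such a library. Standard errors came from the F statistic. CPM are counts over the library total, with a floor of 3 counts at 0.043 to 0.609 CPM that covers counting error only. Co-variation used log2(CPM + 0.5).

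The members and lists were chosen with earlier results of these data known. The genes named are the members, the targeted gene, fixed genes moving beside them, up to 4 called genes of each list or, where none passed, from up to 3 with the smallest p in batch 2 and over both batches, and the 8 most alike, of which 1 is not reported here. Sequences came from RefSeq promoters of GRCm38.p6, another build than that of the table. DESeq2 1.42.0, limma 3.58.1 (voom), upper-quartile scaling, no filter, summed Hspa1a and Hspa1b, a replicate block and the omission of each library were alternatives. Those for the batch term were added after seeing the data.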

Additional observations from a re-analysis of the deposited data

Results flagged for a closer look

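One value lay far from the others of its group. Hsp90ab1 stood at 617 CPM in ERα KO replicate 3, against 1392 to 1666 CPM in the other 4 ERα KO libraries, so that the gap took 0.740 of the group's whole range, above the limit of 0.71 for 5 samples. The groups examined pooled both batches, and of 30 such groups about 1 in 20, or 1.5, would be flagged by chance. The same library was the lowest of batch 1 for 10 of 10 members.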

How the results depend on the processing

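Every member had at least 220 counts in every library. The cause of the changes below was not tested, and the libraries that the replicate block sets aside are named with it. In batch 2, upper-quartile scaling put Hspd1 at 0.029. Genes called there numbered 34 without the filter and 329 with DESeq2, which called 2 members. In batch 1, Hspa8 stood at -0.12 with DESeq2 size factors, the Wald test and limma-voom and at -0.046 without the filter, and genes called numbered 56 with DESeq2 size factors, 6 with upper-quartile scaling and 68 without the filter; these scalings put the median of all genes at -0.08 and 0.11, beside 0.04. Over both batches, upper-quartile scaling put Dnaja1 at 0.0047, and genes called numbered 2 without the filter, 16 with DESeq2 and 0 with limma-voom or without a batch term. In the interaction they numbered 2 without the filter, 165 with DESeq2 and 0 with limma-voom. With both replicates 3 left out, the values over both batches were 0.22 for Hspa1a, 0.23 for Hspa1b, 0.26 for Hspa8, 0.0052 for Hsp90aa1, 0.057 for Hsp90ab1, 0.32 for Dnajb1, 0.23 for Dnaja1 and 0.15 for Hspd1. In the batch term, Hspa1a was -0.019 with DESeq2 size factors and the Wald test, -0.15 with upper-quartile scaling and -0.10 when summed with Hspa1b; Hspa1b was 0.041 without the filter and 0.013 with limma-voom; upper-quartile scaling gave 1 called member, Hsp90aa1 at -0.041 and Dnajb1 at -0.013; and 25837 genes were called without the filter.

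Deviations of same-numbered libraries from their group means had r of 0.42, -0.45 and -0.15 for numbers 1, 2 and 4. This check could not decide whether the numbers are pairs. With 2 wildtype libraries in a batch, their deviations are equal and opposite, so the signs were tied: ERα KO replicate 2 had r of 0.45 with wildtype replicate 1. The numbers were not taken as pairs, and batch 2 shares 1 number only. The replicate block gave 58 called genes and no called member in batch 1. With it, Hsp90aa1 was at 0.22, Hsp90ab1 at 0.18, Dnaja1 at 0.10 and Hspd1 at 0.17. ERα KO replicate 3 had no wildtype library of its number there, so the block took it out of the genotype difference. The median log2 fold change of the members was 0.30 with the block, beside 0.27 with that library left out. Over both batches, ERα KO replicate 5 had no wildtype library of its number, and number 3 joined libraries of different batches. The genotype difference of the block there rested on numbers 1, 2 and 4. Over both batches the block gave 0.57 for Hspa1a, 0.54 for Hspa1b, 0.35 for Hspa8, 0.11 for Hsp90aa1, 0.14 for Hsp90ab1, 0.48 for Dnajb1, 0.28 for Dnaja1 and 0.22 for Hspd1.

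Leaving out each library in turn, batch 2 gave 0 to 5 called members and 0 to 879 called genes, with Hspa8 from -0.39 to 0.19, Hsph1 from -0.47 to 0.11, Dnaja1 from -0.059 to 0.52, Hspd1 from -0.23 to 0.22 and Hspe1 from -0.31 to 0.19. Batch 1 gave 0 to 2 called members and 33 to 118 called genes, with Hspa8 from -0.26 to 0.34, Hsp90aa1 from -0.56 to 0.20, Hsp90ab1 from -0.52 to 0.16, Dnaja1 from -0.48 to 0.075 and Hspd1 from -0.41 to 0.14. Both batches gave 0 to 3 called genes, with Hspa1a from -0.75 to 0.093, Hspa1b from -0.68 to 0.055, Hspa8 from -0.20 to 0.10, Hsph1 from -0.038 to 0.36, Dnajb1 from -0.35 to 0.12, Dnaja1 from -0.16 to 0.13 and Hspd1 from -0.21 to 0.052. The interaction gave 0 to 1 called members and 1 to 238 called genes, with Hspa8 from -0.50 to 0.14, Hsp90ab1 from -0.52 to 0.14 and Hspd1 from -0.20 to 0.36. The batch term gave 1 to 6 called members, with Hspa1a from -0.45 to 0.47 and Hspa1b from -0.64 to 0.18.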
